A study of Mus musculus with 13 samples.

Results

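Primary hepatocytes kept in culture were compared with tail-tip fibroblasts (TTF), the skin-derived connective tissue cells of the mouse tail, across all genes of an expression array. The comparison takes the 4 arrays titled as hepatocytes and the 3 titled as TTF, 7 of the 13 arrays in the series, chosen by their titles alone. Levels of 19087 genes were described, with genes of hepatocytes kept apart from genes of the other cells that live in the liver.

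Hepatocytes are the parenchymal cells of the liver. They secrete most plasma proteins, run the urea cycle, bile acid synthesis, gluconeogenesis and drug metabolism, and are held in this state by a network of transcription factors that includes the Foxa, Hnf4a, Onecut and Gata factors. Around them the liver holds Kupffer cells (its resident macrophages), sinusoidal endothelium, stellate cells (vitamin A storing pericytes), bile duct epithelium and a mesothelial cover. Hepatocytes in culture are known to lose part of their specialised functions with time, and fibroblasts keep the Hox gene code of the body position they came from.

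The hepatocyte group held 4 arrays of p19Arf-null primary hepatocytes taken 21 days after isolation and grown in a modified Block's medium, and their labels describe dividing cells of epithelial form. The TTF group held 3 arrays of p19Arf-null tail-tip fibroblasts taken 42 days after isolation and grown in DMEM with serum. Both groups are of strain C57BL/6-129, and both lack p19Arf, a product of the Cdkn2a locus that restrains Mdm2 and so guards p53, so the fibroblasts are no wild-type control. Days in culture and medium differ together with cell type and cannot be told apart from it. The third replicated group, 4 arrays of induced hepatocyte-like cells (iHep) picked as single colonies from TTF that carried 3 liver transcription factors on lentiviruses, entered the fit to share the estimate of spread and served as a second point of comparison. The labels name no sort that would remove other liver cells from the hepatocyte cultures, and leave unsaid how many animals or cultures stand behind a group, so p-values here speak of the spread between arrays, part of which may be technical.

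Each array gave 1 intensity per feature. A level below is the log2 intensity minus the 75th percentile of its array, averaged over the features of a gene, so 0 is the 75th percentile and levels of different genes are not compared. The 75th percentile itself lay between 1140 and 2260 on the hepatocyte arrays and between 1720 and 2030 on the TTF arrays. Between 72.1% and 81.2% of features were measured, that is above 3 times the local floor of the array, on the hepatocyte arrays, and between 75.9% and 80.4% on the TTF arrays. A difference is a hepatocyte minus TTF log2 value ± its standard error from limma, 4 hepatocyte against 3 TTF arrays, with limma's adjusted p. Genes with an adjusted p below 0.05 that changed 2-fold or more are called higher or lower. Where no TTF array measured a gene that was higher, or no hepatocyte array one that was lower, the fold is given as a lower bound.

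The 4 hepatocyte arrays were not alike. Arrays 1 and 2 had a Spearman rho of 0.98 over all array features and arrays 3 and 4 one of 0.97, whereas across these pairs rho lay at 0.95 or lower. Hepatocyte arrays 3 and 4 stood nearer to the TTF arrays (rho 0.91 to 0.92) than arrays 1 and 2 did (0.88 to 0.89). Among the TTF arrays, 2 and 3 had a rho of 0.98 and array 1 one of 0.95 with either. The labels give no reason for these pairs and no scan or slide, so levels are given by array for many of the genes named, and list counts also with arrays left out.

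Over all genes, 1426 were higher in hepatocytes, 7.47% of the genes tested, and 937 were lower, 4.91%, so that 12.4% were called in either direction. The largest increases measured in both groups were of Igfbp1, Krt8, Fgb, Wfdc2, Alb and Serpina1d, between 13.80 and 11.92 on the log2 scale. Largest among the decreases were Crabp1, Hoxa11, Thbs4, Sema7a, Itgbl1 and Mfap5, which fell by 10.85 to 9.11. Measured in a group here means on at least 1 of its arrays. Igfbp1 was measured on 1 TTF array, and Alb and Wfdc2 on 2. Hoxa11 was measured on 1 hepatocyte array, Crabp1, Itgbl1 and Mfap5 on 2, and Thbs4 on 3. The size and rank of these differences thus rest partly on levels under the limit. The 2 groups did not overlap on any array, with hepatocytes higher, for 18.2% of genes, and with hepatocytes lower for 14.9%. The split between directions moved with the scaling: 60.3% of calls were higher in hepatocytes as reported, 49.3% after quantile normalization and 34.1% after scaling by the median, which moved the median difference of all genes to -0.33 from 0.07. Without hepatocyte arrays 1 and 2 the calls were 797 higher and 469 lower, and without arrays 3 and 4 they were 1771 and 1278. With 1 TTF array left out they were 1411 higher and 730 lower without array 1, 797 and 451 without array 2, and 732 and 449 without array 3. Without hepatocyte array 2, 606 genes were lower.

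**Figure D1:**
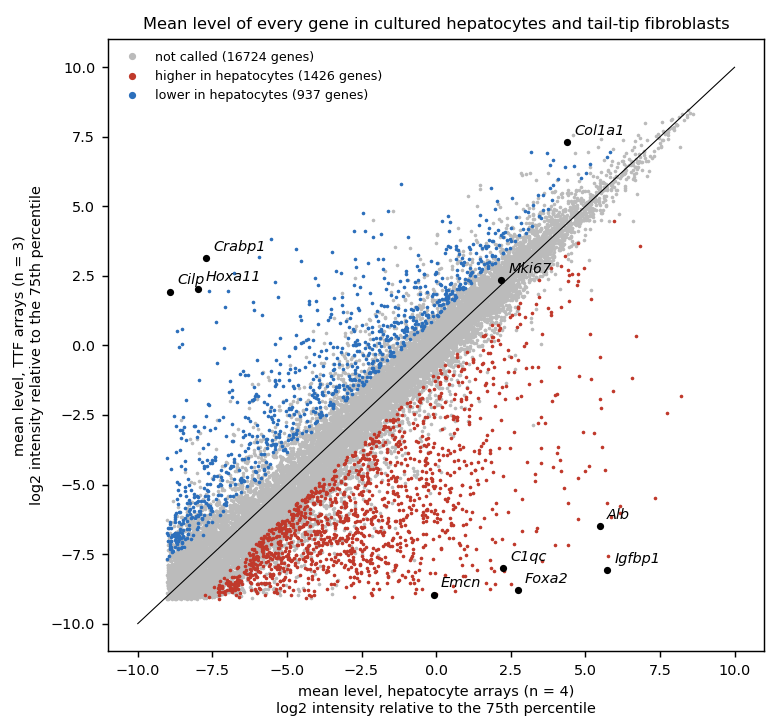
Mean level of each of the 19087 genes on the 4 hepatocyte arrays (x axis) and the 3 TTF arrays (y axis), both as log2 intensity relative to the 75th percentile of the array; the line marks equal means. The 1426 genes called higher in hepatocytes lie below the line and the 937 called lower above it, with Alb and Igfbp1 far to the lower right, Crabp1, Hoxa11 and Cilp at the upper left, and Mki67 near the line.

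Secreted plasma proteins made the clearest hepatocyte group. Of 30 plasma carriers and apolipoproteins measured, 21 were higher in hepatocytes, 0 were lower, and the median difference was 5.77 (5.75 with genes unmeasured in TTF at their bound), against 0.07 over all genes. The coagulation list had 14 of 24 members higher and the complement list 8 of 19, with 0 lower in either. The complement count includes Fcna, a gene that macrophages express. Without hepatocyte arrays 1 and 2 the higher counts of these 3 lists were 15, 10 and 7, and without arrays 3 and 4 they were 23, 18 and 10. In bulk RNA, fewer cells of a type and less RNA per cell cannot be told apart, which holds for every list below. The counts of these and all later lists stand against 7.47% higher and 4.91% lower over all genes.

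Alb, the main protein of plasma, lay at 5.07, 5.17, 4.59 and 7.14 on the hepatocyte arrays 1 to 4, against -6.79, -5.40 and -7.26 on the TTF arrays 1 to 3. The groups were far apart, by 11.97 ± 0.80 (adjusted p = 1e-05). Its level was also above that of iHep, by 2.96. Ahsg, the serum glycoprotein fetuin-A, had levels of 5.46, 5.43, 5.10 and 7.06 in hepatocytes and was measured on no TTF array, so it was at least 9047-fold higher (adjusted p = 0.00084). Ambp, the precursor of alpha-1-microglobulin and bikunin, was higher by 10.98 ± 0.78 (adjusted p = 1.6e-05) and exceeded iHep by 7.53. Apoa1, the main protein of high density lipoprotein, was higher than in TTF by 7.49 ± 0.69 (adjusted p = 8.8e-05) and lower than in iHep by 2.75 log2 units. Ttr, which carries thyroxine and retinol binding protein, differed by 6.18 ± 1.27 (adjusted p = 0.01). Hepatocyte array 3 was the lowest for this list, with a median level of -1.56, against 0.59, 0.84 and 0.50 on hepatocyte arrays 1, 2 and 4 and -5.48, -5.53 and -5.56 on the TTF arrays.

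Among clotting genes the fibrinogen chains stood out. Fgb, the fibrinogen beta chain, lay at 7.37, 4.79, 5.64 and 6.85 in hepatocytes and at -5.59, -6.13 and -6.37 in TTF, a difference of 12.19 ± 0.68 (adjusted p = 3.5e-06). The gamma chain, Fgg, was at least 580.4-fold higher. Heparin cofactor II, Serpind1, was higher by 10.39 ± 0.62 (adjusted p = 6e-06). Of the complement genes, the collectin Mbl2 was at least 1738-fold higher, and its levels were 5.89 and 5.14 on hepatocyte arrays 1 and 2 but 0.87 and 2.27 on arrays 3 and 4. The serum protease factor I, Cfi, was higher by 7.20 ± 1.16 (adjusted p = 0.0027) on all 4 arrays. Fcna, a ficolin that macrophages make, was higher by 6.17 ± 0.82 (adjusted p = 0.00087), again with arrays 1 and 2 highest (2.26 and 1.03, against -1.5 and -0.90 on arrays 3 and 4). The protease inhibitors Serpina1b, at least 633.6-fold higher, and Serpina1d belong to a family of near-identical genes in the mouse, whose probes may share signal.

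Acute phase genes, which the liver turns on in inflammation, were higher for 12 of 17 members, with 0 lower and a median difference of 5.33. The lipocalin Lcn2 lay at 6.24, 5.45, 1.72 and 4.23 in hepatocytes and at -7.59, -7.24 and -6.66 in TTF (difference 11.57 ± 0.88, adjusted p = 2.7e-05). Hemopexin, Hpx, was higher by 8.44 ± 0.74 (adjusted p = 6.5e-05). Hepcidin, Hamp, the hormone of iron balance, split the cultures: 5.82 and 3.19 on hepatocyte arrays 1 and 2, -3.14 and -2.61 on arrays 3 and 4, and -8.47, -7.04 and -7.37 in TTF. Its difference of 8.44 ± 1.92 (adjusted p = 0.016) was not called in 4 of 21 alternative settings. The count of higher members was 7 without hepatocyte array 1, 5 without TTF array 2 and 6 without TTF array 3. It was 8 without hepatocyte arrays 1 and 2 and 11 without arrays 3 and 4. List medians followed the order of Hamp, at 1.28 and 0.84 on arrays 1 and 2 and -2.90 and -1.78 on arrays 3 and 4.

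Promoters of these genes are shown because the factor HNF1, a homeodomain protein of liver, is known to act on several of them. The letters GTTAATNAT, a form of its motif, were searched on both strands from 250 bases before to 50 after the RefSeq start site on GRCm38.p6. They occurred in 13 of 109 promoters of hepatocyte-list genes called higher (11.93%), in 0 of 13 of those called lower, in 1 of 51 promoters of other-liver-cell genes called higher, and in 0.68% of 15247 promoters of all genes tested. Over all 27025 promoters the share was 0.84%. For the HNF4 letters CAAAGTCCA, 1 of 109 promoters held a match, against 0.47% of all genes tested. A match is a description of these letters and not a site shown to be bound. Promoters of hepatocyte-list genes that were not called were not counted, so these shares cannot tie the motif to the higher call. The 250 bases upstream of the start are printed 5′ to 3′ for 4 genes of secreted proteins with a match, chosen after their values were seen, and capitals mark the match.
Alb, chr5:90460620-90460869, plus strand, match 32 bases upstream: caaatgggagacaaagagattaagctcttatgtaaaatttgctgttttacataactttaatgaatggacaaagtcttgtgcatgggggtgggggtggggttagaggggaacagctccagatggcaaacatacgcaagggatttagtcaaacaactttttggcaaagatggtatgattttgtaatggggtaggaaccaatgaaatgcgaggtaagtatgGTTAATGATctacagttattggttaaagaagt
Afp, chr5:90490464-90490713, plus strand, match 105 bases upstream: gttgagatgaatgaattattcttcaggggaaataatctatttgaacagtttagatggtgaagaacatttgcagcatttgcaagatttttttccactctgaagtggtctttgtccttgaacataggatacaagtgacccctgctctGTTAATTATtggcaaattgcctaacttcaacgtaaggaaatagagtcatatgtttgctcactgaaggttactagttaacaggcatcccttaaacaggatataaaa
Fga, chr3:83025903-83026152, plus strand, match 46 bases upstream and read on the other strand: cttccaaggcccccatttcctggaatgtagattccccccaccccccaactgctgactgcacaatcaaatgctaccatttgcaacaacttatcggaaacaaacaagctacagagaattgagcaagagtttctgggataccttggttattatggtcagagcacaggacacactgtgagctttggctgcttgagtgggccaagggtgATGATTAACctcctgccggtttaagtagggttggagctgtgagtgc
Igfbp1, chr11:7197537-7197786, plus strand, match 59 bases upstream and read on the other strand: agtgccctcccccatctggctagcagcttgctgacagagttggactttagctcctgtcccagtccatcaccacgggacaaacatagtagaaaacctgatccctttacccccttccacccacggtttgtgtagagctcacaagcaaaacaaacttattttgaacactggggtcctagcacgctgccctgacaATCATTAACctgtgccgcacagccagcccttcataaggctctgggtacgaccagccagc
All of these 4 genes were called higher in hepatocytes. Igfbp1, a binding protein of insulin-like growth factors that fasting raises in liver, had the largest difference among called genes measured in both groups: 6.13, 4.06, 5.74 and 7.02 in hepatocytes, against -7.12, -8.28 and -8.79 in TTF (13.80 ± 0.98, adjusted p = 1.6e-05). It also exceeded iHep by 10.82. Fga, the fibrinogen alpha chain, was higher by 8.26 ± 1.72 (adjusted p = 0.011). Afp, the fetal counterpart of albumin, was higher by 10.01 ± 1.05 (adjusted p = 0.00021) and lay at 3.56, 1.56, 3.07 and 5.20 in hepatocytes.

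Liver transcription factors were higher for 14 of 25 members and lower for 1, with 10 higher without hepatocyte arrays 1 and 2 and 13 without arrays 3 and 4. Foxa2, a pioneer factor of endoderm, was the most uniform: 3.17, 3.06, 2.08 and 2.63 in hepatocytes against -8.72, -9.07 and -8.60 in TTF, a difference of 11.53 ± 0.34 (adjusted p = 3.3e-08). It was above iHep by 3.57. Foxa3 was at least 24.37-fold higher (adjusted p = 0.00054). Nr1h4, the bile acid receptor FXR, was higher by 7.84 ± 0.97 (adjusted p = 0.00059) and exceeded iHep by 3.30. Hnf4a, the nuclear receptor at the centre of the network, lay at -1.87, -2.33, -3.72 and -2.87 in hepatocytes and at -6.37, -6.58 and -7.91 in TTF (4.26 ± 0.61, adjusted p = 0.0014). Its 3 features disagreed in size, between 2.25 and 8.04. Gata4 was higher by 2.90 ± 0.79 (adjusted p = 0.035), a call lost in 9 of 21 alternative settings, and Onecut2 by 6.20 ± 1.59 (adjusted p = 0.028), lost in 5. Cebpa, a leucine zipper factor of mature hepatocytes and of fat cells, showed no call: -2.33, -1.73, -4.24 and -3.52 in hepatocytes against -2.08, -3.49 and -3.65 in TTF. Its difference was 0.12 ± 0.59 (adjusted p = 0.93), and the groups overlapped. The T-box factor Tbx3 was lower, by -3.23 ± 0.43 (adjusted p = 0.00089).

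Metabolic functions were uneven. Drug metabolism genes were higher for 25 of 61 members and lower for 1. Cyp3a13 was at least 621.8-fold higher, the glutathione transferase Gsta3 was higher by 8.27 ± 0.73 (adjusted p = 7.2e-05), and Cyp1a1, the target of the aryl hydrocarbon receptor, by 7.04 ± 1.59 (adjusted p = 0.016). Cyp1a1 lay at 1.54, 3.17 and 1.93 on hepatocyte arrays 1, 2 and 4 but at -4.33 on array 3. Cyp3a11, a main drug-oxidising P450 of adult mouse liver, was not called: -4.88, -5.18, -4.38 and -3.59 in hepatocytes and -3.13, -5.67 and -5.92 in TTF (0.40 ± 0.62, adjusted p = 0.74). Cyp2c55 was lower, by -1.73 ± 0.47 (adjusted p = 0.034), lost in 8 of 21 settings. The count of higher members was 16 without TTF array 2, 15 without TTF array 3 and 14 without hepatocyte arrays 1 and 2.

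Bile acid genes were higher for 7 of 34 members and lower for 1, against 7.47% and 4.91% of all genes. Cyp7a1, whose product limits the rate of bile acid synthesis, lay at -5.56, -6.44, -6.49 and -6.08 in hepatocytes against -7.74, -7.25 and -7.51 in TTF. This difference was small next to that of the plasma proteins, 1.36 ± 0.33 (adjusted p = 0.021), and its call was lost in 8 of 21 settings. The peroxisomal oxidase Acox2 was higher by 7.19 ± 0.79 (adjusted p = 0.00027). Abcc2, the canalicular conjugate pump, was at least 238.8-fold higher, and the sterol half-transporter Abcg5 was higher by 4.82 ± 0.62 (adjusted p = 0.00075). Atp8b1, a lipid flippase of the canalicular membrane, was lower, by -1.54 ± 0.38 (adjusted p = 0.023), and 1 of its 4 features went the other way. Without hepatocyte arrays 1 and 2, 3 members were higher, and without arrays 3 and 4, 11 were.

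Urea cycle and amino acid genes were higher for 10 of 38 members and lower for 1, against 7.47% and 4.91% of all genes. Gldc, of the glycine cleavage system, was higher by 7.75 ± 1.07 (adjusted p = 0.0011). Arg1, which makes urea in hepatocytes and is also made by some macrophages, lay at 4.78, 0.66, 0.72 and -2.65 in hepatocytes and at -5.56, -6.14 and -5.95 in TTF (6.76 ± 1.40, adjusted p = 0.01). Mat1a, the methionine adenosyltransferase of adult liver, was at least 15.75-fold higher, with -1.29 and -1.23 on hepatocyte arrays 1 and 2 but -5.50 and -5.26 on arrays 3 and 4. Without arrays 1 and 2 it was not called (adjusted p = 0.099). Tat, tyrosine aminotransferase, was not called either (0.82 ± 0.47, adjusted p = 0.29). In contrast, Csad, of taurine synthesis, was lower by -2.04 ± 0.51 (adjusted p = 0.024). Without hepatocyte array 1 or 2, 6 members were higher, and 3 without both of them, without TTF array 2 or without TTF array 3.

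Glucose and glycogen genes were higher for 7 of 21 members and lower for 0, against 7.47% and 4.91% of all genes. Besides Igfbp1, the gluconeogenic enzyme Fbp1 was higher by 6.54 ± 1.1 (adjusted p = 0.0035), at 1.14 and 1.41 on hepatocyte arrays 1 and 2, -3.44 and -2.22 on arrays 3 and 4, and -6.89, -8.02 and -7.05 in TTF. Pklr, the liver pyruvate kinase, was higher by 3.96 ± 0.70 (adjusted p = 0.0047). Fatty acid oxidation genes had 1 of 27 members higher and 0 lower, against the same 7.47% and 4.91%, with a median difference of 0.24. The higher member was the thioesterase Acot12 (3.29 ± 0.81, adjusted p = 0.024). The Acot12 call was lost in 5 of 21 settings. The count of higher members was 5 in a fit of hepatocyte and TTF arrays alone, 4 with the replicate block and 0 without hepatocyte array 1, TTF array 2 or TTF array 3, and 8 of the 27 did not overlap with hepatocytes higher, against 18.2% of all genes.

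Sterol and fatty acid synthesis went the other way, with 10 of 31 members lower and 1 higher, against 4.91% and 7.47% of all genes. Sqle, squalene epoxidase, lay at 1.49, 1.92, 2.45 and 3.10 in hepatocytes against 3.47, 4.07 and 4.16 in TTF, lower by -1.66 ± 0.37 (adjusted p = 0.015). Cyp51 was lower by -1.62 ± 0.38 and Lss, lanosterol synthase, by -1.56 ± 0.32 (adjusted p = 0.018 and 0.011). In the comparison with iHep, which shares the hepatocyte arrays, 17 of the 31 were lower, against 6.25% of all genes. Hepatocyte array 4 was nearest to TTF for all 3 of these genes. Without hepatocyte array 1, 6 members were lower, and without array 2, 5 were. With any of TTF array 2, TTF array 3 or hepatocyte arrays 1 and 2 left out, 0 members of the list were called lower, and after scaling by the median 16 were, against 2 with no scaling. The member that was higher, Mlxipl, is the carbohydrate-responsive factor ChREBP (4.95 ± 1.14, adjusted p = 0.017).

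Receptors and secreted regulators of hepatocytes were higher for 14 of 31 members, with 0 lower. Tfr2, the iron-sensing transferrin receptor of hepatocytes, was nearly equal on the 4 hepatocyte arrays (1.70, 1.67, 1.37 and 1.83, against -3.65, -4.38 and -4.30 in TTF; 5.75 ± 0.50, adjusted p = 6.5e-05). Its level exceeded iHep by 6.04. Agt, angiotensinogen, was higher than in TTF by 5.74 ± 0.81 (adjusted p = 0.0013) and below iHep by 3.06 log2 units. The protease Hgfac, which activates hepatocyte growth factor, was higher by 5.63 ± 0.64 (adjusted p = 0.00034). Without TTF array 2 or 3, 9 members were higher, and without hepatocyte arrays 1 and 2, 8 were. Fetal and progenitor genes were mixed, with 6 of 21 higher and 4 lower, against 7.47% and 4.91% of all genes. Next to Afp, the tetraspanin Tspan8 was higher (6.36 ± 1.0, adjusted p = 0.0024), and Prom1, a membrane marker of progenitors, by 5.06 ± 1.30 (adjusted p = 0.029). Dlk1, a fetal hepatoblast protein that some mesenchymal cells also make, was lower by -5.47 ± 0.53 (adjusted p = 0.00012), the RNA-binding protein Igf2bp3 by -3.96 ± 0.42 (adjusted p = 0.00021) and the imprinted long RNA Meg3 by -4.23 ± 1.07 (adjusted p = 0.026). Without hepatocyte array 1, TTF array 2 or TTF array 3, 3 members were higher and 2 lower, and without hepatocyte arrays 3 and 4, 3 were higher and 5 lower.

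**Figure D2:**
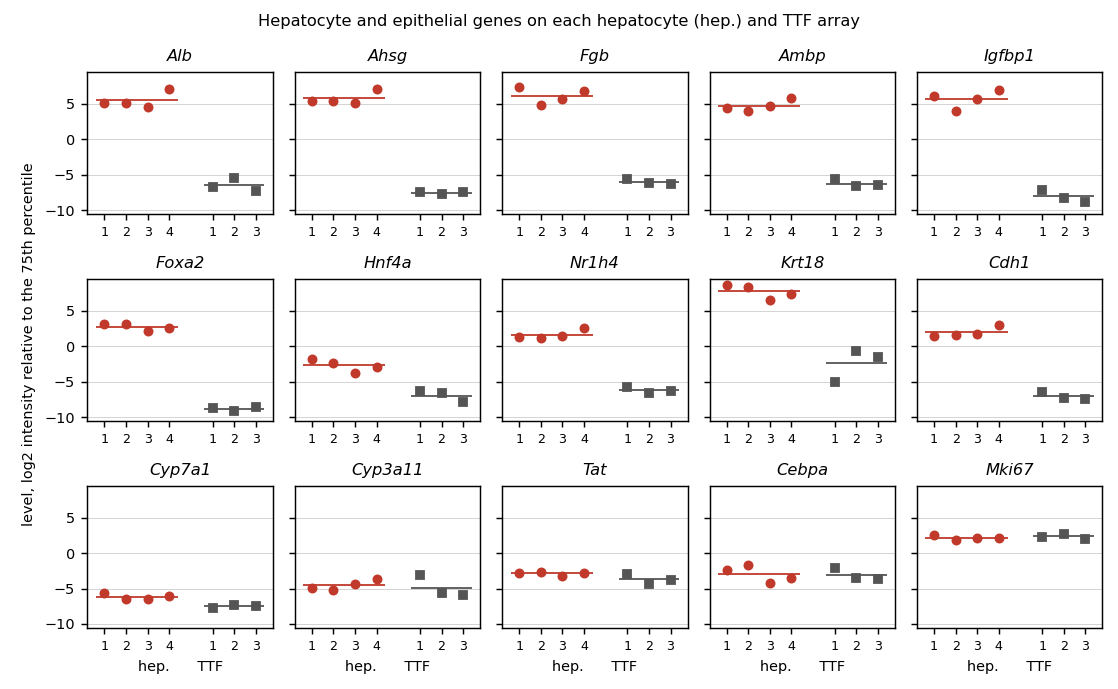
Level of 15 hepatocyte, epithelial and proliferation genes on each array, as log2 intensity relative to the 75th percentile (y axis); circles are hepatocyte arrays 1 to 4, squares TTF arrays 1 to 3 and lines the group means. Alb, Ahsg, Fgb, Igfbp1 and Foxa2 lie far above TTF on all 4 hepatocyte arrays, Cyp7a1 lies 1.36 above on average, and Cyp3a11, Tat, Cebpa and Mki67 were not called.

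Epithelial genes were higher for 27 of 46 members and lower for 0, with a median difference of 3.27. The higher count was 21 without hepatocyte arrays 1 and 2 and 29 without arrays 3 and 4. The keratins of simple epithelia, Krt8 and Krt18, differed by 12.82 ± 1.48 (adjusted p = 0.00039) and 10.14 ± 1.0 (adjusted p = 0.00014). Cdh1, E-cadherin, lay at 1.47, 1.63, 1.69 and 3.04 in hepatocytes and at -6.51, -7.25 and -7.45 in TTF (9.03 ± 0.58, adjusted p = 8.2e-06). Lsr, a protein of tricellular junctions, was higher by 9.45 ± 0.59 (adjusted p = 6.8e-06). Outside any list, the membrane trafficking protein Mal2 was at least 987.1-fold higher and the epithelial secreted protein Wfdc2 was higher by 12.05 ± 1.38 (adjusted p = 0.00038).

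Bile duct genes gave a mixed picture, with 6 of 19 members higher and 0 lower, against 7.47% and 4.91% of all genes. The median difference was 0.12. Krt23 was at least 128.8-fold higher and Sorbs2, an adaptor of the actin skeleton, higher by 6.79 ± 0.47 (adjusted p = 1.4e-05). Krt19, the classic duct keratin, lay at 5.92, 3.49, 3.84 and 4.39 in hepatocytes and at 1.74, 2.34 and 2.88 in TTF, a difference of 2.09 ± 0.61 (adjusted p = 0.047). That call was lost in 10 of 21 settings, and the level was below iHep by 1.93. The duct keratin Krt7 (5.11 ± 1.62, adjusted p = 0.063), the duct factor Sox9 (-1.34 ± 1.16, adjusted p = 0.5) and the chloride channel Cftr (-0.62 ± 0.65, adjusted p = 0.59) were not called. Krt7 and Sox9 did not overlap between the groups. The spread of the fit includes iHep, where the standard deviation of Sox9 was 2.75, against 0.52 in hepatocytes and 0.39 in TTF. Cd24a, a surface protein of duct and progenitor cells, was higher by 4.49 ± 1.15 (adjusted p = 0.028). Without hepatocyte arrays 3 and 4, 3 members were higher. The summed linear level of the list ranged from 23.51 to 96.1 on the hepatocyte arrays and from 26.8 to 56.03 on the TTF arrays.

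**Figure D3:**
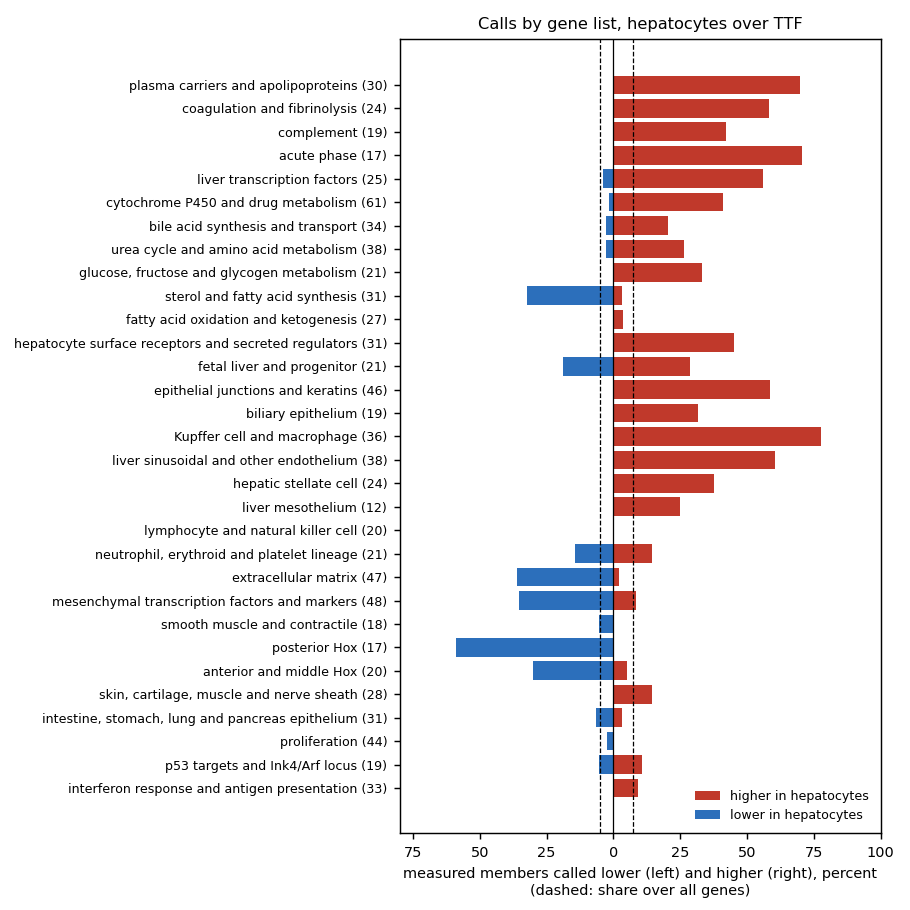
Share of the measured members of each gene list, in percent, called higher (right, red) or lower (left, blue) in hepatocytes than in TTF; list sizes are in brackets and dashed lines mark the shares over all genes, 7.47% higher and 4.91% lower. Macrophage genes (28 of 36) had a larger share higher than plasma carriers (21 of 30), and posterior Hox genes (10 of 17) had the largest share lower of the lists shown.

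Genes of Kupffer cells and macrophages made up the list with the largest share of calls. Of 36 members, 28 were higher in hepatocyte cultures than in TTF and 0 were lower. The groups did not overlap, with hepatocytes higher, for 32 of them, against 18.2% of all genes. The median difference was 5.79 (5.78 with bounds). In the comparison with iHep, which shares the hepatocyte arrays, 23 of the 36 were higher and 1 lower, against 7.5% and 6.25% of all genes. The summed linear level of the list was 389.0, 283.6, 40.04 and 68.01 on hepatocyte arrays 1 to 4, against 1.97 to 2.11 on the TTF arrays.

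The defining markers of the list that were analysed lay above every TTF array on each of the 4 hepatocyte arrays. Of the defining markers, Csf1r and Cd68 were not analysed here. Clec4f, a lectin made by mouse Kupffer cells and few others, lay at 2.98, 1.86, -3.67 and -2.68 in hepatocytes and at -5.42, -5.93 and -6.94 in TTF (5.72 ± 1.45, adjusted p = 0.027). Without hepatocyte arrays 1 and 2 its difference was 2.92 and no longer called (adjusted p = 0.066). Vsig4, a complement receptor of tissue macrophages, lay at 3.51, 3.35, -0.77 and -0.26 in hepatocytes and at -5.86, -6.89 and -6.87 in TTF (8.0 ± 1.04, adjusted p = 0.00078), and without arrays 1 and 2 it remained called (6.03, adjusted p = 0.0012). C1qa and C1qc, chains of complement C1q that macrophages secrete, were higher by 9.12 ± 0.95 and 10.25 ± 0.94 (adjusted p = 0.0002 and 8.8e-05). Adgre1, the F4/80 antigen, was at least 26.89-fold higher, and Cd5l, a macrophage survival protein, was higher by 7.84 ± 0.86 (adjusted p = 0.00027). The cathepsin Ctss and the signalling adaptor Tyrobp were higher by 9.95 ± 0.84 and 9.55 ± 0.68 (adjusted p = 5.6e-05 and 1.6e-05). All of these markers exceeded iHep too, by 5.73 for Adgre1 up to 10.07 for C1qc. Other called members include Cd163, Marco, Lyz2 and Ptprc. Each of the markers named with array values was higher on arrays 1 and 2 than on arrays 3 and 4, and arrays 3 and 4 were still above TTF.

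The list median of acute phase genes was likewise higher on hepatocyte arrays 1 and 2 than on arrays 3 and 4, and the part of macrophage RNA in their differences was not tested. Without arrays 1 and 2, 25 macrophage genes were higher, and without arrays 3 and 4, 31 were. Of the lymphocyte and natural killer genes, 0 of 20 were called in either direction by limma, and at an unadjusted p under 0.05 3 were higher and 0 lower. Without TTF array 1, without hepatocyte arrays 3 and 4 or with the replicate block, 1 member was called higher. Cd3e, of the T cell receptor complex (-0.51 ± 0.39, adjusted p = 0.44), Cd79a, of the B cell receptor (0.61 ± 0.28, adjusted p = 0.18), Nkg7, of cytotoxic granules (-0.07 ± 0.53, adjusted p = 0.95), and the T cell adhesion molecule Cd2 (1.13 ± 0.48, adjusted p = 0.15) lay low on every array of both groups. Cd79b, also of the B cell receptor, lay at -2.21 and -4.34 on hepatocyte arrays 1 and 2 and at -7.73 and -8.14 on arrays 3 and 4 (1.93 ± 1.30, adjusted p = 0.37), and Ncr1, of natural killer cells, differed by -1.58 ± 0.80 (adjusted p = 0.23). Neutrophil, erythroid and platelet genes were higher for 3 of 21 and lower for 3, against 7.47% and 4.91% of all genes. The counts were 1 and 4 without hepatocyte array 1, 4 and 1 without hepatocyte array 2 or 3, 2 and 1 without hepatocyte array 4 or TTF array 1, 1 and 1 without TTF array 2, and 1 and 0 without TTF array 3. Pf4, a chemokine of platelets that some macrophages also make, lay at 6.98, 4.24, 2.45 and 2.20 in hepatocytes and at -4.75, -8.07 and -8.69 in TTF (11.13 ± 1.45, adjusted p = 0.0008). The neutrophil protein S100a8 was higher by 5.31 ± 1.35 (adjusted p = 0.028), lost in 7 of 21 settings, and the red cell band 3 gene Slc4a1 by 1.38 ± 0.36 (adjusted p = 0.031), lost in 8. Neutrophil Mpo (1.13 ± 0.43, adjusted p = 0.11) and erythroid Alas2 (1.83 ± 0.85, adjusted p = 0.19) were not called. The platelet integrin Itga2b was lower, by -2.52 ± 0.53 (adjusted p = 0.011), as were Cxcr2 and Gp1bb (-1.92 ± 0.49 and -1.29 ± 0.35, adjusted p = 0.028 and 0.036), whose calls were lost in 9 and 8 of 21 settings.

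Endothelial genes were higher for 23 of 38 members and lower for 0, with a median difference of 2.69, and 18 of the 38 were higher than in iHep, against 7.5% of all genes. Emcn, a sialomucin of capillary and venous endothelium, was measured on no TTF array and was at least 169.4-fold higher, with 1.31, -1.59, -0.53 and 0.50 on the hepatocyte arrays. Stab2, a scavenger receptor of liver sinusoids, lay at 0.41, 0.85, -1.68 and -0.73 in hepatocytes and at -3.05, -3.66 and -3.87 in TTF (3.24 ± 0.56, adjusted p = 0.0038). Robo4, an endothelial guidance receptor, was higher by 6.31 ± 0.87 (adjusted p = 0.0011), and Lyve1, the hyaluronan receptor of sinusoids and lymphatics, by 4.17 ± 0.65 (adjusted p = 0.0021). Lyve1 was not called against iHep (difference -0.12). Kdr, the main VEGF receptor, was higher by 2.80 ± 0.45 (adjusted p = 0.0026), a mean over 20 features that ranged from -2.70 to 6.95. The VE-cadherin gene Cdh5 (6.14 ± 1.59, adjusted p = 0.029) was not called against iHep (difference 0.16), and its call against TTF was lost in 8 of 21 settings. Pecam1, CD31, was higher by 3.00 ± 0.88 (adjusted p = 0.048), a call lost in 13 of 21 settings. Clec4g, a lectin of liver sinusoids, was not called (1.89 ± 0.70, adjusted p = 0.1). The summed level was 26.44, 42.43, 6.95 and 17.23 on hepatocyte arrays 1 to 4 and between 3.13 and 7.13 on the TTF arrays. With hepatocyte array 1 or 2 left out, 14 and 15 endothelial genes were higher, with both left out 11, and with TTF array 2 or 3 left out 12 and 10.

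Stellate cell genes were higher for 9 of 24 members and lower for 0, against 7.47% and 4.91% of all genes. Lrat, which stores vitamin A as retinyl ester in these cells, lay at -2.87, -1.18, -2.37 and -0.06 in hepatocytes and at -7.93, -8.75 and -8.34 in TTF (6.72 ± 0.60, adjusted p = 7.4e-05). Gdf2, the ligand BMP9 that liver stellate cells secrete, was higher by 5.93 ± 0.81 (adjusted p = 0.0011), the factor Lhx2 by 6.40 ± 0.74 (adjusted p = 0.00039) and the matrix protein Reln by 5.87 ± 0.99 (adjusted p = 0.0035). Unlike macrophage genes, Gdf2 was higher on arrays 3 and 4 (0.57 and 1.77) than on arrays 1 and 2 (-2.17 and -0.48). Desmin, Des, differed by 4.68 ± 0.70 (adjusted p = 0.0018), the factor Hand2 by 2.55 ± 0.52 (adjusted p = 0.0094) and the neurotrophin receptor Ngfr by 1.62 ± 0.38 (adjusted p = 0.019). Colec11, a collectin of stellate cells, was not called (3.66 ± 1.13, adjusted p = 0.057), with 0.15 and 2.65 on arrays 3 and 4 and -3.15 and -2.70 on arrays 1 and 2. The summed level of the list, which holds collagens shared with fibroblasts, was 13.15, 15.15, 78.34 and 87.42 on hepatocyte arrays 1 to 4 and 45.42 to 118.8 on the TTF arrays. Against iHep, 10 of the 24 members were higher, compared with 7.5% of all genes.

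Mesothelial genes differed widely among the hepatocyte arrays. The median level of the 12 members was -5.19 and -5.88 on arrays 1 and 2, -0.58 and 0.70 on arrays 3 and 4, and -6.29, -7.02 and -6.93 on the TTF arrays. Wt1, a transcription factor of mesothelium, lay at -4.83, -5.51, 1.61 and 1.05 in hepatocytes against -8.67, -9.11 and -8.53 in TTF (6.85 ± 1.59, adjusted p = 0.018). Upk3b, a mesothelial membrane protein, lay at -7.43, -6.63, -0.61 and 0.75 and was measured on no TTF array, but was not called (adjusted p = 0.06). Mesothelin, Msln (6.08 ± 1.91, adjusted p = 0.061), and Gpm6a (4.17 ± 1.27, adjusted p = 0.055) also missed the threshold. Upk3b, Msln and Gpm6a did not overlap between the groups. In the list 7 of 12 did not overlap with hepatocytes higher, against 18.2% of all genes. The standard deviation of Msln was 3.92 in iHep, which shares the fit, 2.27 in hepatocytes and 1.55 in TTF. For Upk3b and Gpm6a it was largest in hepatocytes, at 4.15 and 2.95. Lrrn4 and Muc16 were higher by 3.00 ± 0.84 and 2.01 ± 0.58 (adjusted p = 0.04 and 0.045), calls lost in 16 and 14 of 21 settings. Thus 3 of 12 were called higher over all 4 arrays, against 7.47% of all genes. The count was 8 without arrays 1 and 2, and 3 without arrays 3 and 4. With 1 array left out the count was 7 without hepatocyte array 2, 4 without hepatocyte array 1, 1 without hepatocyte array 3 or 4, 2 without TTF array 1 and 0 without TTF array 2 or 3. The summed level was 9.24, 1.38, 30.71 and 55.48 on hepatocyte arrays 1 to 4, against 0.66 to 0.73 on the TTF arrays.

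**Figure D4:**
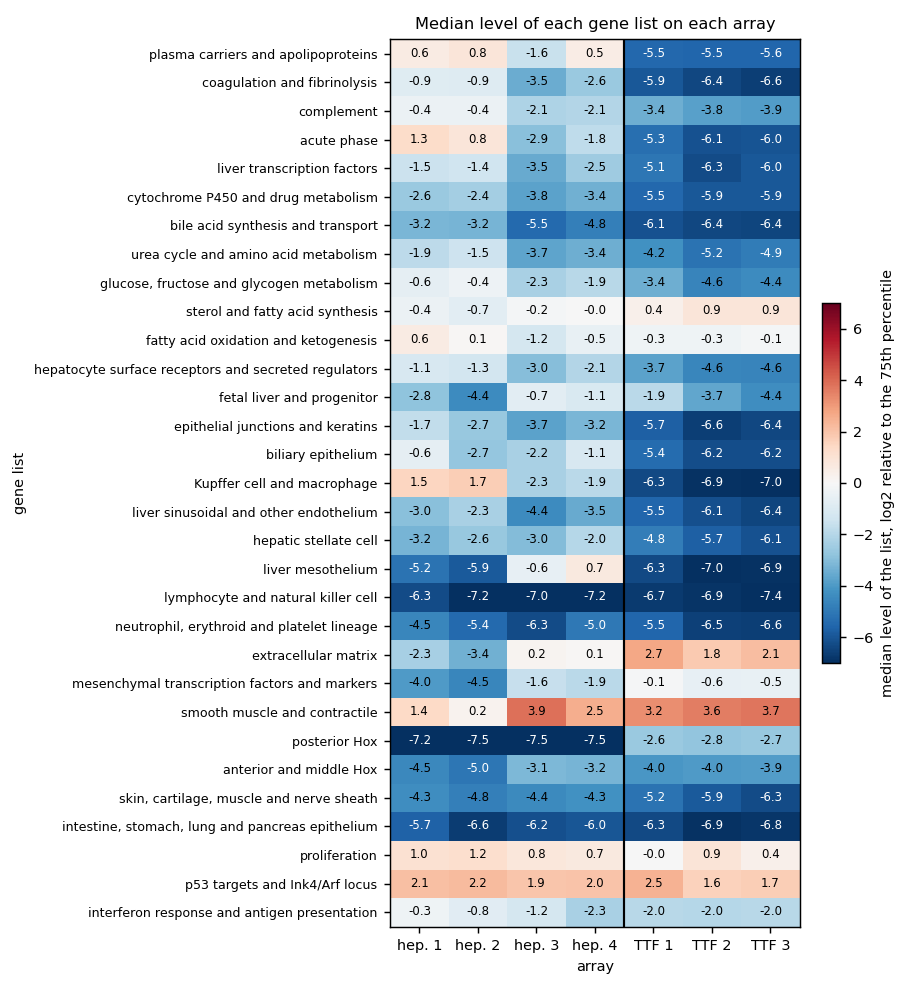
Median level of each gene list (rows) on hepatocyte (hep.) arrays 1 to 4 and TTF arrays 1 to 3 (columns), as log2 intensity relative to the 75th percentile, red high and blue low. Hepatocyte arrays 1 and 2 are high for macrophage (1.52 and 1.71) and acute phase genes, arrays 3 and 4 for mesothelial (-0.58 and 0.70) and matrix genes, and all 4 are low for posterior Hox genes.

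Fibroblast genes were lower in hepatocytes, but not evenly. Of 47 extracellular matrix genes, 17 were lower and 1 higher, with a median difference of -2.70. In this list 32 did not overlap with hepatocytes lower, against 14.9% of all genes. Mfap5, a microfibril protein, lay at -7.71, -8.67, -2.65 and -4.67 in hepatocytes and at 3.66, 2.85 and 3.05 in TTF (-9.11 ± 1.17, adjusted p = 0.00073). Aspn, asporin, was lower by -7.41 ± 1.24 (adjusted p = 0.0033) and Ltbp2, which binds to elastic microfibrils, by -6.45 ± 1.23 (adjusted p = 0.0068). The main fibrillar collagen was not called: Col1a1 lay at 2.68, 1.5, 6.91 and 6.48 in hepatocytes and at 7.57, 7.16 and 7.21 in TTF (-2.92 ± 2.30, adjusted p = 0.45). Arrays 3 and 4 thus came close to the TTF arrays, while arrays 1 and 2 lay far below. The standard deviation of Col1a1 was 4.97 in iHep, which shares the fit, 2.71 in hepatocytes and 0.22 in TTF. Its partner chain Col1a2 had the same order (-2.47 ± 1.5, adjusted p = 0.32). Lum, lumican, was higher in hepatocytes, at 0.71, 0.34, 3.75 and 3.59, against -1.76, -4.55 and -4.80 in TTF (5.80 ± 1.07, adjusted p = 0.0059). The summed level of the matrix list was 229.7, 83.47, 1084 and 863.9 on hepatocyte arrays 1 to 4, against 1189 to 1800 on the TTF arrays. Without any 1 of hepatocyte array 1, hepatocyte array 2 or TTF arrays 1 to 3, 11 members were lower, without hepatocyte arrays 1 and 2, 10, and without arrays 3 and 4, 25.

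Mesenchymal factors and surface markers were lower for 17 of 48 members and higher for 4, against 4.91% and 7.47% of all genes. Crabp1, a retinoic acid binding protein of dermal fibroblasts, had the largest decrease among called genes measured in both groups, with -7.16, -7.32, -8.43 and -7.94 in hepatocytes and 0.17, 4.79 and 4.47 in TTF (-10.85 ± 1.05, adjusted p = 0.00012). Dpt, dermatopontin, was lower by -6.67 ± 1.16 (adjusted p = 0.0042), and the homeobox factor Prrx2 by -6.50 ± 1.05 (adjusted p = 0.0027). Classic fibroblast markers missed the threshold. Thy1 lay at -3.83, -6.95, 2.49 and -0.13 in hepatocytes against 4.79, 4.36 and 4.37 in TTF (-6.61 ± 2.17, adjusted p = 0.071), and Pdgfra at -1.77, -0.72, 2.33 and 2.44 against 2.94, 1.71 and 1.52 (-1.49 ± 1.80, adjusted p = 0.65). Prrx1 (-3.33 ± 1.08, adjusted p = 0.066) and Twist2 (-4.38 ± 1.34, adjusted p = 0.056) were also not called. Thy1, Prrx1 and Twist2 did not overlap between the groups. For Twist2 the standard deviation was 3.08 in iHep, which shares the fit, against 1.13 in hepatocytes and 0.24 in TTF. Vim, vimentin, was not called, with 1.77, 0.86, 0.84 and 0.84 in hepatocytes and 1.16, 2.15 and 2.05 in TTF (-0.71 ± 0.47, adjusted p = 0.37). The ectonucleotidase Nt5e, CD73, was higher in hepatocytes on all 4 arrays (4.01 ± 0.33, adjusted p = 4.6e-05). So were the mesodermal factor Foxf1 (2.44 ± 0.58, adjusted p = 0.019) and the Notch target Heyl (3.17 ± 0.76, adjusted p = 0.02). Without hepatocyte array 3, 26 members were lower, and without arrays 3 and 4, 29 were. Without TTF array 2 or 3, 1 member was higher.

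Several of the largest decreases were of genes measured on no hepatocyte array. Cilp, of cartilage, was at least 638.4-fold lower, tenomodulin (Tnmd) at least 198.5-fold, the Wnt agonist Rspo2 at least 140.2-fold and the angiotensin receptor Agtr2 at least 35.33-fold. Among genes measured in both groups, Thbs4, a matrix protein of tendon, fell by 9.56 on the log2 scale and Itgbl1 by 9.38. Sema7a, a membrane semaphorin, also fell by 9.38. TTF array 1 stood apart for several of these: Cilp lay at 4.42 there and at 0.72 and 0.66 on TTF arrays 2 and 3, and Sema7a at 0.96 there and at 5.31 and 5.25.

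**Figure D5:**
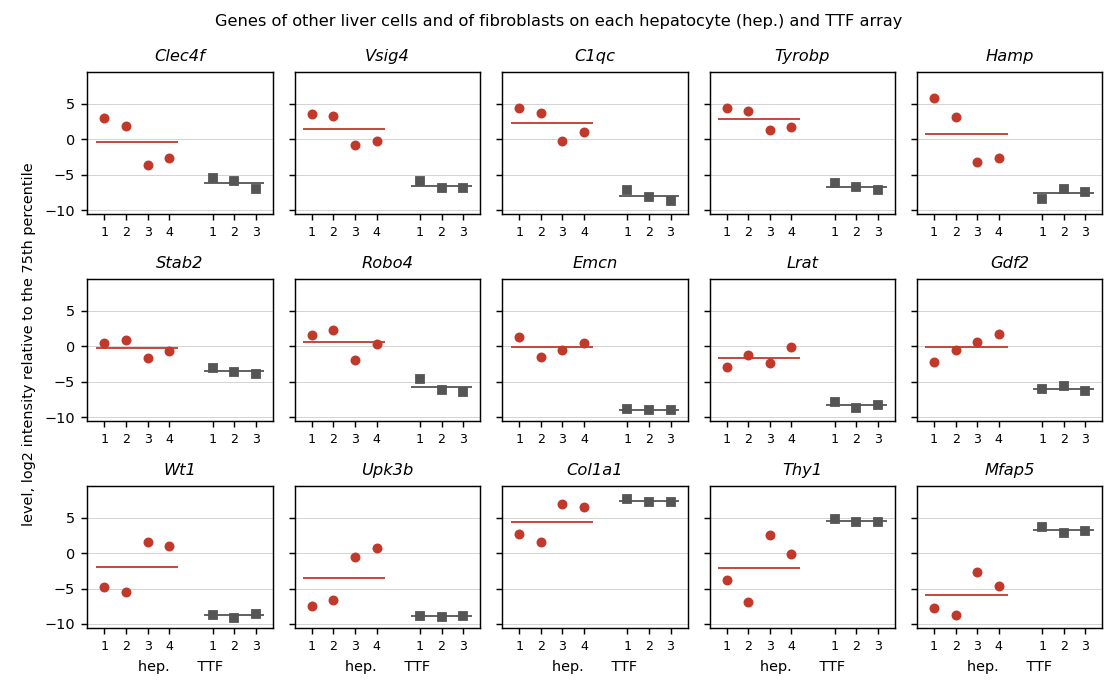
Level of 15 genes of macrophages, endothelium, stellate cells, mesothelium and fibroblasts, with the acute phase gene Hamp, on each array as log2 intensity relative to the 75th percentile (y axis); circles are hepatocyte arrays 1 to 4, squares TTF arrays 1 to 3 and lines the group means. Clec4f, Vsig4, C1qc, Tyrobp and Hamp are higher on hepatocyte arrays 1 and 2 than on 3 and 4, whereas Wt1, Upk3b, Col1a1, Thy1 and Mfap5 are higher on arrays 3 and 4.

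The median level of the posterior Hox list lay lower on every hepatocyte array than on any TTF array, whereas that of the anterior and middle Hox list overlapped between the groups. Of 17 posterior Hox genes, 10 were lower in hepatocytes and 0 higher, with a median difference of -4.61. Their median level was -7.18, -7.53, -7.48 and -7.51 on the hepatocyte arrays and -2.57, -2.79 and -2.67 on the TTF arrays, close together within each group. On hepatocyte arrays 1 to 4, 11, 9, 8 and 5 of the 17 members were measured, so their closeness there may be partly that of the array floors. Hoxa10 was at least 201.1-fold lower (adjusted p = 3.3e-08) and Hoxc12 at least 133.8-fold (adjusted p = 0.00052). Hoxa11 lay at -8.70, -7.26, -8.57 and -7.34 in hepatocytes and at 1.62, 2.30 and 2.20 in TTF (-10.01 ± 0.49, adjusted p = 1.3e-06). Against iHep, 10 of the 17 were lower, and 6.25% of all genes were. The count lower than in TTF was 10 without hepatocyte arrays 1 and 2, where 1 member was higher, and 11 without arrays 3 and 4. Anterior and middle Hox genes were lower for 6 of 20 and higher for 1, against 4.91% and 7.47% of all genes. Hoxb7 was lower by -3.74 ± 0.78 (adjusted p = 0.011), Hoxa7 by -3.39 ± 0.99 (adjusted p = 0.047) and Hoxb8 by -2.59 ± 0.69 (adjusted p = 0.033). Hoxd4 was at least 4.91-fold higher. The Hoxa7, Hoxb8 and Hoxd4 calls were lost in 12, 6 and 7 of 21 settings. Hoxa7 and Hoxb7 lay higher on arrays 3 and 4 than on arrays 1 and 2 (Hoxb7 at 0.53 and -0.94, against -2.80 and -3.57). Without any 1 of hepatocyte array 1, hepatocyte array 2, TTF array 1 or TTF array 2, 3 members of this list were lower, and 1 without TTF array 3 or without hepatocyte arrays 1 and 2.

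Smooth muscle genes had 1 of 18 members lower, smoothelin (Smtn, -1.91 ± 0.36, adjusted p = 0.0063). This share is near the 4.91% of all genes. Without hepatocyte array 3, 6 were lower, without arrays 3 and 4, 8, without TTF array 1, 2, and with scaling by the median, 3. Their summed level was 108.0, 64.3, 563.9 and 274.2 on hepatocyte arrays 1 to 4, against 408.1 to 599.9 on the TTF arrays. Genes of skin, cartilage, muscle and nerve sheath were higher for 4 of 28 and lower for 0, against 7.47% and 4.91% of all genes. Among the higher members were Sox5 (2.86 ± 0.78, adjusted p = 0.037), Chad (1.84 ± 0.49, adjusted p = 0.032) and Krt14 (1.63 ± 0.36, adjusted p = 0.014). The Sox5 and Chad calls were lost in 6 and 7 of 21 settings. The count was 2 without hepatocyte array 1, hepatocyte array 4 or TTF array 2, 1 without TTF array 3, and 8 in a fit of hepatocyte and TTF arrays alone. Genes of gut, lung and pancreas epithelium were higher for 1 of 31 and lower for 2, against 7.47% and 4.91% of all genes. The pancreatic protease gene Ctrb1 was higher by 2.21 ± 0.64 (adjusted p = 0.046), while the aminopeptidase Anpep was lower by -3.16 ± 0.46 (adjusted p = 0.0016) and the pancreatic factor Ptf1a by -1.17 ± 0.32 (adjusted p = 0.035). The Ctrb1 and Ptf1a calls were lost in 12 and 9 of 21 settings. With 1 hepatocyte or TTF array left out, between 0 and 2 members were higher and 1 or 2 lower.

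Few cell division genes were called. Of 44, limma called 0 higher and 1 lower, against 7.47% and 4.91% of all genes, with a median difference of 0.09. At an unadjusted p under 0.05 the counts were 0 and 2, and without TTF array 1 limma called 0 and 2. The 1 gene called lower with all arrays was E2f1, a factor of the G1 to S step (-2.44 ± 0.39, adjusted p = 0.0024). Mki67, the Ki-67 antigen of dividing cells, lay at 2.54, 1.88, 2.15 and 2.17 in hepatocytes and at 2.21, 2.75 and 2.05 in TTF (-0.15 ± 0.39, adjusted p = 0.84). Cdkn2a, the locus that encodes both p16Ink4a and p19Arf, lay at -3.69, -3.06, -1.35 and -0.78 in hepatocytes and at 2.32, 1.60 and 1.72 in TTF (-4.10 ± 0.68, adjusted p = 0.0032). Whether its probe lies in the deleted part is not given in the sources used here, so the signal checks nothing about the deletion. Perp, a p53 target that is also a desmosome protein, was higher by 10.06 ± 1.34 (adjusted p = 0.00089), and Trp53inp1 by 2.74 ± 0.56 (adjusted p = 0.0099). They are 2 of the 19 members of the p53 and Ink4/Arf list, against 7.47% of all genes higher. Without TTF array 2 or 3, 1 member of that list was called higher.

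Interferon and antigen presentation genes were higher for 3 of 33 and lower for 0, a share near the 7.47% of all genes. Oasl1, an interferon-induced antiviral gene, lay at 2.37, 1.92, -0.62 and -0.75 in hepatocytes and at -5.77, -3.14 and -3.49 in TTF (4.86 ± 1.11, adjusted p = 0.017). The interferon-induced GTPase Iigp1 was higher by 3.31 ± 0.42 (adjusted p = 0.00071) and the immunoproteasome subunit Psmb8 by 2.75 ± 0.77 (adjusted p = 0.039), a call lost in 8 of 21 settings. Without arrays 1 and 2, 1 member was called, and without arrays 3 and 4, 12 were. On arrays 1 and 2, 21 and 16 members lay more than 2-fold above every TTF array, and on arrays 3 and 4, 4 and 2 did.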

How the data were processed

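Each of 13 samples was measured on 1 one-colour array with Cy3. Linear intensities were deposited, made with Agilent Feature Extraction 10.5.1.1 per the submitters' processing notes. Background handling, slide and scan were not stated there. Of 45018 features, 33653 have 1 gene symbol, 56 several (not used) and 11309 none, and 33517 matched the RefSeq gene table of GRCm38.p6 by gene ID. Log2 intensities were scaled by the 75th percentile of each array and averaged over the features of a gene. An array's local floor is its minimum over 101 neighbouring features, and a gene counts as measured where any of its features lies above 3 times it. A lower bound sets the bright group's mean against the dim arrays' mean limit. Hepatocyte, TTF and iHep arrays (11) were fitted with limma 3.58.1 in R 4.3.3 (lmFit, eBayes), and p-values were adjusted by Benjamini-Hochberg over 19087 genes. Python 3.11.15 and pandas 2.3.3 made the tables.

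The genes, the 31 lists and the design were chosen with earlier results of these data known. Named genes are the 6 largest increases and decreases among called, non-overlapping genes measured in both groups, the 6 largest bounds each way, up to 3 called members each way per list (the 2 largest where none was called), the cell type markers and a set of liver genes. Others are said to be chosen after their values were seen or stand without values as further called members. Some markers were not analysed here. On simulated data with 200 of 19087 genes changed, the share recovered was 20% for changes of 1.5 log2 units, 50% for 2, 80% for 3 and 86% for 4, and 4 unchanged genes were called. The simulated noise was independent between arrays, so the pairs of like arrays were left out. A smaller share of genes was changed than the 12.4% called here. Error rates in these data may therefore differ.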

Additional observations from a re-analysis of the deposited data

Results flagged for a closer look

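Among 159 named genes and 31 list medians, the highest or lowest of the 4 hepatocyte arrays stood apart from the other 3 by Dixon's test at its 95% critical value in 9 cases. Chance flags about 1 in 20 groups, which is near this share. Hepatocyte array 4 was high for Serpina1b (3.98), Nr1h4 (2.57), Cdh1 (3.04) and Lss (-1.02). Hepatocyte array 1 was high for Smtn (0.52), Vim (1.77) and the posterior Hox list median (-7.18). That list median lies near the limit of measurement. Hepatocyte array 3 was low for Ngfr (-4.05) and for the median of plasma carriers and apolipoproteins (-1.56). No group of 3 TTF arrays was tested this way.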

How the results depend on the processing

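In 21 alternative settings, 85 of the 132 named genes that were called remained called throughout and 47 lost the call in at least 1. None of the 132 changed direction. Calls not already described that way were lost in 7 settings for Clec4f and Prom1, 6 for Cd24a and Csad, 5 for Ngfr, 4 for Atp8b1, Mat1a, Mlxipl, Heyl, Meg3, Wt1 and Foxf1, 3 for Lss, Sqle and Cyp51, 2 for Cyp1a1, Oasl1 and Trp53inp1, and 1 for Dlk1, Itga2b, E2f1, Krt14, Ttr and Hand2. Counts of genes called higher and lower moved by over 1.5 times with scaling by the median (1923 lower), an offset of 50 (868 higher) and in leave-one-out fits, which ran from 732 to 1517 higher and from 449 to 1024 lower, the lowest without TTF array 3, where of the 1426 and 937 genes 728 and 443 were shared. In 2 settings added after seeing the data, leaving out hepatocyte arrays 1 and 2 gave 797 higher and 469 lower, and leaving out arrays 3 and 4 gave 1771 and 1278. Genes higher and unmeasured in TTF numbered 178 at 3 times the floor, 103 at 2 times and 356 at 5 times. The replicate block gave 1437 higher and 852 lower. Deviations of same-numbered arrays correlated at -0.056, 0.111 and -0.003, within the range of -0.135 to 0.134 for arrays of different number. These values show no pairing by replicate number, and a shared animal or batch was not tested. The cause of the shifts in counts was not tested.

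Differences near 0, none of them called, changed sign for 8 genes. For Cebpa they were -0.182 with quantile normalization, -0.277 with scaling by the median, -0.138 with the brightest probe, -0.803 without hepatocyte arrays 1 and 2, and from -0.288 to 0.614 leaving out 1 array. For Cyp3a11 they were -0.073 (quantile), -0.002 (median), -0.130 without hepatocyte arrays 3 and 4, and from -0.113 to 1.284 leaving out 1 array. For Nkg7 they were 0.297 (brightest probe), 0.200 (common floor), 0.081 (offset), 0.146 (replicate block), 0.026 without hepatocyte arrays 1 and 2, and from -0.334 to 0.135 leaving out 1 array. Without hepatocyte arrays 1 and 2, Pdgfra was 0.329 and Cd79b -0.399, and without arrays 3 and 4, Cftr was 0.056. Cd3e was 0.576 (brightest probe) and 0.096 (offset), and Mki67 ran from -0.299 to 0.054 leaving out 1 array. The number of arrays limits precision, and levels near the local floor have no order.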
